A study of Mus musculus with 16 samples.

Results

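Mouse embryonic stem cells (ESCs) without wild-type WDR5 were compared with ESCs that had it, by where ATAC-seq, which marks open chromatin through the insertion of a transposase, gave a peak. The comparison used 12 of the 16 peak lists of the series, 4 without and 8 with wild-type WDR5, and the lists were placed by their labelled genotype. All 12 came from an Rx:GFP knock-in line kept in 2i+LIF medium. Without wild-type WDR5 were the Wdr5 and p53 double knockouts stably transfected with the backbone plasmid (2 lists) or with WDR5 S91K-Y191F (2 lists). With it were the double knockout transfected with WDR5WT, the p53 knockout clones C9 and H9, which keep their own Wdr5, and the parental line, which also keeps p53 (2 lists each). Each side thus holds few cell lines, 2 without and 4 with, and the C9 and H9 lists come from 1 clone each. The labels do not say whether a list's replicate is a separate culture, so p-values over lists measure only the spread between these libraries. On chromosomes 1 to 19, X and Y the peaks of the 12 lists merged, by an overlap of at least 1 bp, into 52480 regions. The number of lists on each side that held a region is the measure used throughout.

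WDR5 is a WD-repeat protein and a core scaffold of the COMPASS and MLL complexes, the histone methyltransferases that mark promoters of active genes. In ESCs it is known as a partner of OCT4 and as a factor needed for self-renewal. NANOG and SOX2 are transcription factors of the same pluripotency network, and their genes are controlled by promoters and by distal enhancers that are open in ESCs.

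A small set of regions followed the labels completely. All 8 lists with wild-type WDR5 and none of the 4 lists without it held 58 regions, 0.111% of the 52480. The reverse, a peak in all 4 lists without and in none of the 8 with, was found at 25 regions, 0.0476% of the total. In the 58 regions lay 15 RefSeq promoter windows of 14 genes, each window running from 250 bases before a start to 50 bases after it (RefSeq, GRCm38.p6). The sequences below show 4 of them, chosen after their values were seen to span the base composition of the set, and the promoter of Nanog, which was open in all 8 lists with wild-type WDR5 and in 1 of 4 without. Capitals mark matches on either strand to the GC box (GGGCGG), the CCAAT box (CCAAT), the ETS word (CCGGAAG), a palindromic NRF1 word of 10 letters, the E-box (CACGTG), the octamer (ATTTGCAT), the ESRRB word (TCAAGGTCA) and the AP-1 word (TGACTCA). Overlapping matches run together.
Dab1, chr4:103619250-103619549 (+ strand): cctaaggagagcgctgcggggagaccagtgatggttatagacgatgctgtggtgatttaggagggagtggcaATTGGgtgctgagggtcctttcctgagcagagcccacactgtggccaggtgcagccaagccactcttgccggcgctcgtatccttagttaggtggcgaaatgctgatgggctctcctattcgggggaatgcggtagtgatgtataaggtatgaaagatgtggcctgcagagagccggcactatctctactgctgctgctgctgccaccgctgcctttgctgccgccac
H2-M3, chr17:37269984-37270283 (+ strand): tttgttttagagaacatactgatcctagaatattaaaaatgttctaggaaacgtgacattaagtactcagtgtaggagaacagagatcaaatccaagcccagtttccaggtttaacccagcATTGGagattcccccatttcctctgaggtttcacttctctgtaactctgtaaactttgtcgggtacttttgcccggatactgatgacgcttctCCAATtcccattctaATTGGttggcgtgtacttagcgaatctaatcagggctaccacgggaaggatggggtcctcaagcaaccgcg
Dicer1, chr12:104751903-104752202 (- strand): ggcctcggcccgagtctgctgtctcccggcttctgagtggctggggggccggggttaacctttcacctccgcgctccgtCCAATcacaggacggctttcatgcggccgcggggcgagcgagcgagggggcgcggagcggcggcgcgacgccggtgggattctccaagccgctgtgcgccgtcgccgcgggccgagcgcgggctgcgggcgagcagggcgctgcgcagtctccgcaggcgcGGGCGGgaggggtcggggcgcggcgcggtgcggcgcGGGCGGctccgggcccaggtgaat
Slc29a4, chr5:142701851-142702150 (+ strand): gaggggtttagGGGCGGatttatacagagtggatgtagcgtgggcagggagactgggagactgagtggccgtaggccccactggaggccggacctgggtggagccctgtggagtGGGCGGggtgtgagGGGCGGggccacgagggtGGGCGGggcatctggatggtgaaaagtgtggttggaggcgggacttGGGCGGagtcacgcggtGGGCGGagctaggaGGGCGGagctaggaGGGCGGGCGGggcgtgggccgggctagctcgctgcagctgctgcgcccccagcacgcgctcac
Nanog, chr6:122707239-122707538 (+ strand): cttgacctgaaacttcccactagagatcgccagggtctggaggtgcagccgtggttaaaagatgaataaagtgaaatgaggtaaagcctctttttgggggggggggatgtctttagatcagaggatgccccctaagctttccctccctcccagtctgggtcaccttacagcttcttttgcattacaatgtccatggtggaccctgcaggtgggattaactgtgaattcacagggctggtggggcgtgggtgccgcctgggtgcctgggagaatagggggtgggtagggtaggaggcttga

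Dab1 encodes an adaptor of reelin signalling in migrating neurons, H2-M3 a non-classical MHC class I molecule, Dicer1 the nuclease that cuts microRNA precursors, and Slc29a4 a monoamine transporter. Their promoters ranged from 44.0% G and C in H2-M3 to 77.3% in Dicer1, and the Slc29a4 window held 9 GC boxes while the Dab1 and H2-M3 windows held 0. Of the 15 windows, 9 (60.0%) held a GC box, 8 (53.3%) a CCAAT box, 4 (26.7%) an ETS word and 2 (13.3%) an E-box. Among all 21238 RefSeq promoter windows of protein-coding genes the shares were 46.2%, 38.2%, 11.6% and 7.84%. The NRF1, octamer, ESRRB and AP-1 words were in 0 of the 15, beside 1.33%, 1.66%, 0.334% and 4.66% of all windows. The median of G and C was 62.0% in the 15 and 56.3% in all windows. The 190 windows in regions held by all 12 lists had a median of 64.2% G and C, and 82.6% of them held a GC box. A CCAAT box was in 55.8% of the 190, an ETS word in 19.5% and an E-box in 8.42%. Regions held by all 8 lists with and 2 to 4 without wild-type WDR5 held 1914 windows. Their shares were 76.4% for the GC box, 50.4% for the CCAAT box, 21.2% for the ETS word and 10.3% for the E-box. Open promoters found on both sides thus also had higher shares of the GC box, CCAAT box and ETS word than all windows. Their E-box shares, 8.42% and 10.3%, were nearer to the 7.84% of all windows. In the Nanog window the 8 words, read on both strands, gave 0 exact matches, and its share of G and C was 54.3%. Only exact words were counted, and ttttgcat in this window differs from the octamer in its first base. The 0 therefore does not show that the window lacks sites of these kinds.

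The lists themselves differed in length before any region was compared. Backbone lists had 1535 and 2492 peaks and S91K-Y191F lists 5174 and 16257, against 29779 and 32709 in WDR5WT, 26305 and 31782 in C9, 30780 and 31130 in H9 and 24367 and 5330 in parental lists. The sides overlapped, because parental replicate 2 had about as few peaks as S91K-Y191F replicate 1 and fewer than S91K-Y191F replicate 2. Over cell lines, log10 peak number averaged 3.63 ± 0.475 without (SD, n = 2 lines) and 4.38 ± 0.213 with wild-type WDR5 (SD, n = 4 lines). The difference of -0.749 gave the smallest p that 6 lines allow (two-sided exact permutation p = 0.0667), and p = 0.00404 when the 12 libraries were permuted. Median peak width was 605.5 ± 31.8 bp without and 630.75 ± 30.4 bp with (SD over 2 and 4 lines; exact permutation p = 0.4). The lists hold no read counts, so depth is unknown and its part in the number of peaks was not tested.

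Gene ends, meaning 1000 bp to each side of the start or the end of a protein-coding gene, took a similar share of all peaks on both sides, 36.1% ± 12 without and 34.5% ± 3.57 with (SD over 2 and 4 lines; two-sided exact permutation p = 0.867). In the strongest 1535 peaks of each list, the length of the shortest list, the shares were further apart. Backbone lists had 17.9% and 33.4% of these peaks at gene ends and S91K-Y191F lists 47.6% and 58.2%, against 75.7% and 81.1% in WDR5WT, 69.4% and 69.9% in C9, 74.8% and 76.4% in H9 and 49.6% and 41.9% in parental lists. Parental replicate 1 lay between the S91K-Y191F lists and parental replicate 2 below both, and the other 6 lists with wild-type WDR5 lay above all 4 without. The difference between line means was -28.1 percentage points (39.3% ± 19.3 without, 67.4% ± 14.8 with; SD over 2 and 4 lines) and gave p = 0.200 over lines and p = 0.0141 over libraries in two-sided exact permutation tests.

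**Figure D1:**
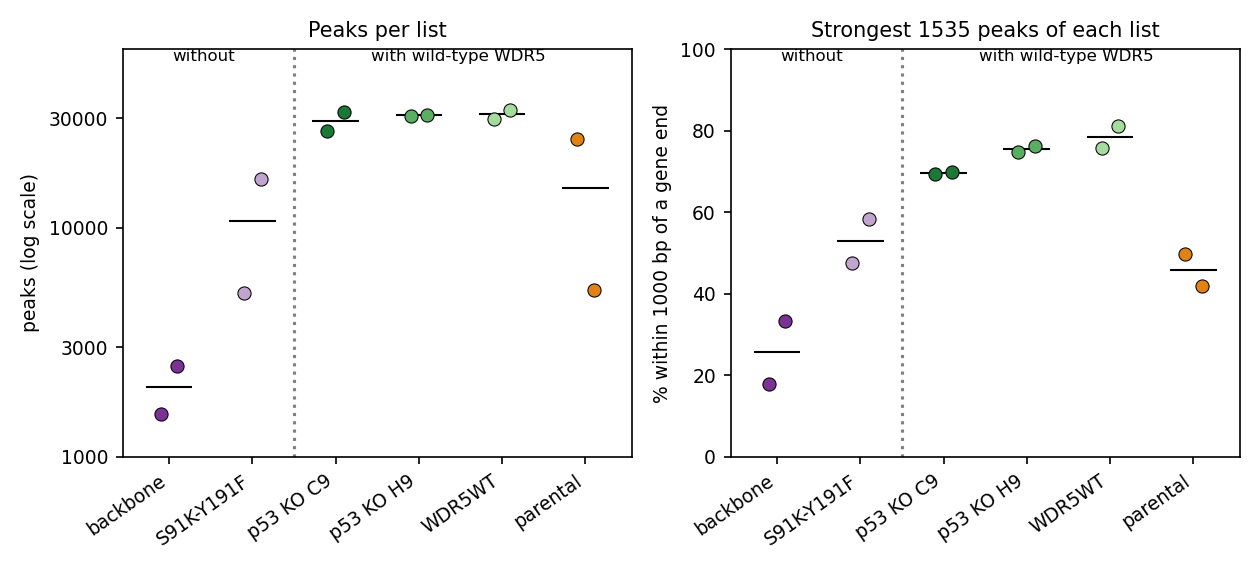
Number of peaks per list (left, log axis) and share of the strongest 1535 peaks of each list within 1000 bp of a gene end (right, percent). Each point is 1 list, bars are the means of 2 lists, and the dotted line parts the cell lines without (left) from those with wild-type WDR5 (right). Parental replicate 2, with 5330 peaks, lies beside S91K-Y191F replicate 1, with 5174.

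Most regions fitted neither complete pattern. A peak in 1 list alone was found at 13063 regions (24.9%), and 321 (0.612%) were held by all 12 lists. Of the 3330 regions held by all 8 lists with wild-type WDR5, 58 were in 0, 957 in 1, 1244 in 2, 750 in 3 and 321 in all 4 lists without it. Of the 954 regions held by all 4 lists without wild-type WDR5, 25 were in 0, 109 in 1 and 434 in 2 lists with it. Those 434 were almost the regions shared with the parental line, since parental replicate 1 held 432 of them, replicate 2 held 433, and each of the other 6 lists at most 1.

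**Figure D2:**
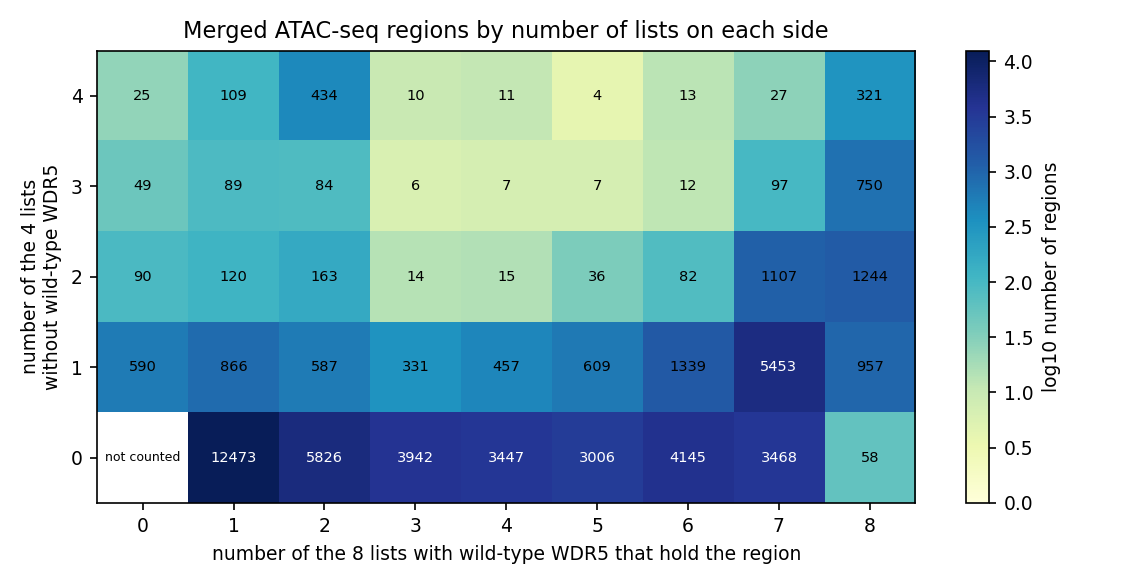
Merged regions by the number of lists without (rows, of 4) and with wild-type WDR5 (columns, of 8) that hold them. Colour is the log10 number of regions and the printed number is the count. The 58 and the 25 regions of the complete patterns are the corners at lower right and upper left, and 5453 regions were held by 7 lists with and 1 without.

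With 1 exception allowed on each side, 9936 regions (18.9%) were held with wild-type WDR5 only and 272 (0.518%) without it only. The exceptions fell on few lists. Of the 9936 regions, 8861 (89.2%) lacked a peak in parental replicate 2 and 6383 (64.2%) had one in S91K-Y191F replicate 2. S91K-Y191F replicate 1 held 25 of them and each backbone list 1. Just inside this limit were the 3468 regions in 7 lists with and 0 without and the 957 in 8 and 1, and just outside it were the 4145 in 6 and 0 and the 1244 in 8 and 2. When every list was held to its strongest 1535 peaks, the counts were 263 with and 409 without, so the order of the directions turned round, and without parental replicate 2 they were 15387 with and 793 without. Within the lists that lack p53, which leaves out the parental line, the complete counts were 6711 with and 569 without. All lists of C9, H9 and WDR5WT lack p53 and have wild-type WDR5, and their list properties differ from those of the other 6, so genotype and list set cannot be told apart in that comparison.

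The 58 complete regions with wild-type WDR5 were spread over 19 chromosomes, and 0 genes of the 22 gene lists had the complete pattern at a gene end. Of them, 18 lay at gene ends, 18 elsewhere inside genes and 22 between genes, and their median width was 1020.5 bp. Gene ends were those of the whole gene. Those inside Prr5l, Slc29a4, Camkk1, Slc39a11 and Kat5 covered RefSeq promoter windows of these genes. Ranked by median signal percentile over the 8 lists, the strongest of the 58 was the Dab1 start at chr4:103618853-103620537. Its signal, in the authors' units of unstated scaling that start at 200, was 2315 and 2388 in WDR5WT, 1848 and 2469 in C9, 2085 and 2436 in H9 and 1428 and 219.7 in parental lists, with no peak in the 4 lists without wild-type WDR5. Of the 8 values 7 were thus far above the floor, and that of parental replicate 2 was near it. The gene end region of Cdon (chr9:35420835-35422542), a co-receptor of Hedgehog signalling, had 2045 and 3201 in WDR5WT, 1175 and 724 in C9, 1853 and 2678 in H9 and 556 and 213 in parental lists. H2-M3 (chr17:37270058-37271430) had 2206 and 2010.1 in WDR5WT, 1221 and 1257 in C9, 1773 and 1772 in H9 and 441 and 372 in parental lists. The same pattern was found at gene ends of Prdm6, a PR domain factor, and Cpq, a carboxypeptidase (chr15:33082799-33083743), and inside Prr5l, whose product binds mTOR complexes (chr2:101796211-101798096), and Ccdc7b (chr8:129146843-129147784). The other 3 of the 10 strongest lay between genes, nearest to Vmn1r227 at 15836 bp (chr17:20718565-20719370), Nucb2 at 251336 bp (chr7:116791924-116793036) and Speer2 at 940301 bp (chr16:68915619-68916573).

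Some weaker complete regions were named after their values were seen. They included the starts of Dicer1, of the orphan nuclear receptor gene Nr4a3 and of the PACAP receptor gene Adcyap1r1. Ends of the zinc transporter gene Slc39a14, the immune receptor gene Lag3 and the neuronal gene Stmn2 were also among them. Another, inside the histone acetyltransferase gene Kat5, covered RefSeq promoter windows of that gene. At Dicer1 (chr12:104751641-104752675) the signal was 868 and 1204 in WDR5WT, 497 and 544 in C9, 547 and 609.9 in H9 and 224 and 277 in parental lists. The count rested on parental replicate 2. Its 58 signals had a median of 241 and a maximum of 404, at a median percentile of 18.8 in its own list, whereas the medians of the other 7 lists were 565 to 976. Without parental replicate 2 the count of complete regions was 3518, and without S91K-Y191F replicate 2 it was 1013. The direction of such a change is set in advance, since leaving out a list removes a condition, and only its size describes the list.

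Distal elements of Nanog and Sox2 were among the 58 and were looked at for that reason, after their values were seen. A region 111.3 kb downstream of the Sox2 start, chr3:34760983-34761662, lies in the known Sox2 control region. Regions 44.4 kb upstream (chr6:122662461-122663673) and 59.3 kb downstream (chr6:122766134-122767416) of the Nanog start lie at known Nanog super-enhancers. At the Sox2 region the signals were 449.7 and 624 in WDR5WT, 328 and 291 in C9, 613 and 565 in H9 and 761 and 268 in parental lists. At the upstream Nanog region the signals were 481 and 848 in WDR5WT, 360.1 and 430.2 in C9, 208 and 470.3 in H9 and 761 and 290.2 in parental lists. These are calls near the floor of 200 in several lists, and none of the 4 lists without wild-type WDR5 had a peak there.

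Within 120 kb of either end of the Nanog gene there were 27 regions, of which backbone lists held 0 and 2 and S91K-Y191F lists 2 and 6, against 17 and 16 in WDR5WT, 16 and 17 in C9, 16 and 20 in H9 and 19 and 7 in parental lists. The locus was picked for its 2 complete regions. Among the other 25, a count chosen after seeing the data, S91K-Y191F replicate 2 held 6 and parental replicate 2 held 5, so the sides overlapped and no test is given. The known enhancer 4.6 kb upstream of Nanog was open on both sides, in 3 of 4 lists without and in all 8 with wild-type WDR5, with signals of 236, 758 and 1711 in backbone replicate 2 and the S91K-Y191F lists against 1725 and 1873 in WDR5WT, 1827 and 1968 in C9, 2453 and 2268 in H9 and 2551 and 765 in parental lists. The promoter region had a peak of 341 in S91K-Y191F replicate 2 alone of the 4, against 270.1 to 937 in the 8 lists. Within 120 kb of Sox2 there were 11 regions, of which backbone lists held 0 and 0 and S91K-Y191F lists 0 and 1, against 7 and 6 in WDR5WT, 3 and 6 in C9, 6 and 6 in H9 and 7 and 1 in parental lists. There the replicates 2 of S91K-Y191F and of the parental line held the same number, so the sides overlapped.

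**Figure D3:**
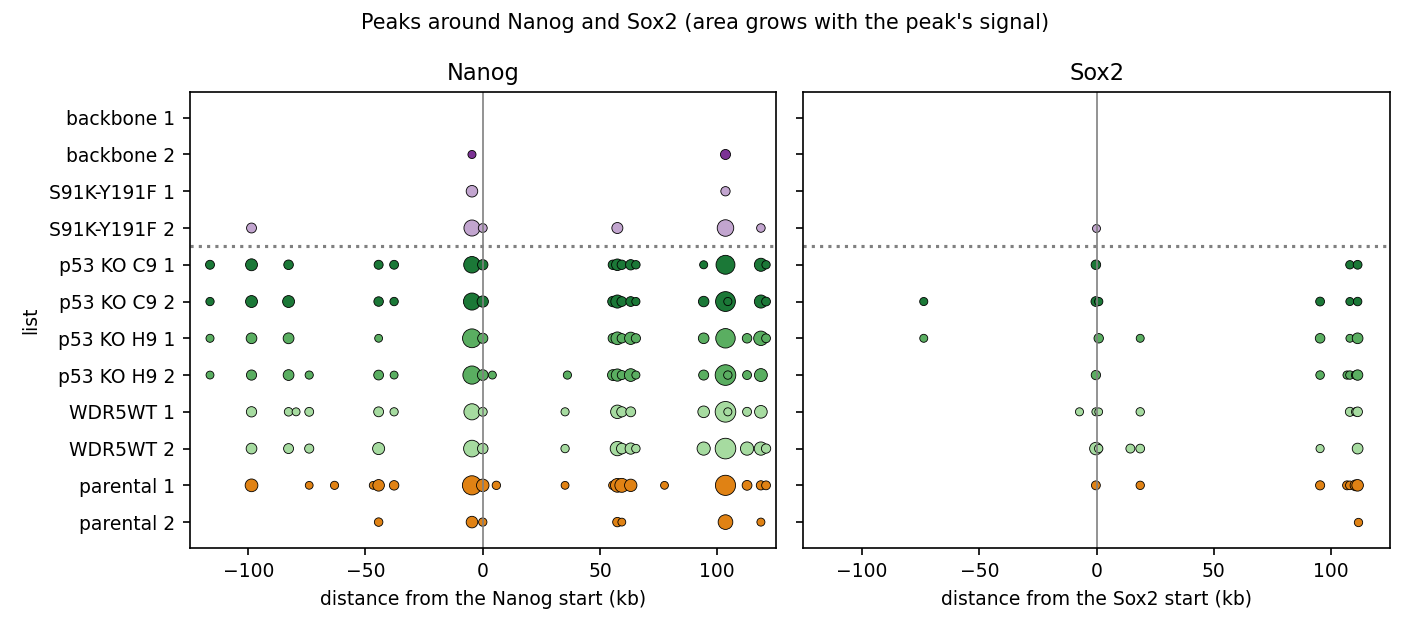
Peaks of each list within 120 kb of either end of the Nanog gene (left) and the Sox2 gene (right), by distance from the gene's start in kb. Each row is 1 list, with the 4 lists without wild-type WDR5 above the dotted line, each point is a region held by the list, and its area grows with the authors' signal. Backbone replicate 1 has no point at either gene, and S91K-Y191F replicate 2 has 6 at Nanog and 1 at Sox2.

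Peaks at gene ends were counted for 21887 protein-coding genes. With 1 exception a side, an end peak was found with wild-type WDR5 only at 4683 genes (21.4%) and without it only at 15 (0.0685%). At equal list length these counts were 224 and 62, and without parental replicate 2 they were 6068 and 67. Without parental replicate 1 they were 5581 and 66. The shares of the gene lists given next are those of the full lists. The complete pattern with wild-type WDR5 was also found at 15 genes (0.0685%), and 188 genes had an end peak in all 12 lists. Lists without wild-type WDR5 had an end peak at 273, 1074, 2868 and 7395 genes, against 9410 to 12025 in the 6 lists of WDR5WT, C9 and H9 and 8923 and 2705 in the parental line. Wdr5 itself had an end peak in 0 of 4 lists without and in 1 of 8 with, Trp53 in 1 of 4 and 4 of 8, and Rax, the eye field gene whose reporter the line carries, in 1 of 4 and 7 of 8. A peak at a gene end does not test whether the gene is deleted.

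The lists of pluripotency genes had shares on both sides of that of all genes. Of 14 naive pluripotency genes 4 had an end peak with wild-type WDR5 only, as did 4 of 12 core pluripotency and 2 of 12 formative and primed genes, beside 21.4% of all genes. Klf4, a naive pluripotency factor, and Fgf4, the ligand that drives exit from that state, had one in 0 of 4 lists without and 7 of 8 with. Nanog had one in 1 of 4 and 8 of 8, and Tdgf1, a Nodal co-receptor, Utf1, a chromatin factor, and Zfp281, a zinc finger regulator, in 1 of 4 and 7 of 8 each. Of the 8 genes set as ESC markers, backbone lists had an end peak at 1 and 1 and S91K-Y191F lists at 1 and 5, against 7 and 7 in WDR5WT, 7 and 6 in C9, 6 and 6 in H9 and 7 and 2 in parental lists. Of 8 fibroblast markers the 4 lists without wild-type WDR5 had 0, against 0 to 3 in the lists with it. The lists short of ESC markers were thus the short ones, parental replicate 2 among them.

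Among the 22 gene lists, genes of growth and replication had the highest shares of end peaks found with wild-type WDR5 only. They were 12 of 20 mitochondrial ribosomal protein genes (60.0%), 13 of 26 proteasome subunits (50%), 10 of 20 DNA replication genes (50%), 6 of 15 translation factors (40%) and 14 of 36 cytosolic ribosomal protein genes (38.9%). Examples absent from all 4 lists without and present in 7 of 8 with are Mrps22, Psmb1, Psmb2, Psmd4, Rpl13, Rpl14 and Cdc6, which loads the replicative helicase. Mcm6, a subunit of that helicase, Rpa1, which binds single-stranded DNA, and Rps23 had an end peak in 1 of 4 and 8 of 8. These lists also hold many genes with a peak in at least 7 of 8 lists with wild-type WDR5, 17 of 20 for DNA replication and 14 of 15 for translation factors, beside 34.0% of all genes. Among such genes, 2 of 14 mitochondrial ribosomal protein genes (14.3%), 2 of 15 proteasome subunits (13.3%) and 7 of 21 cytosolic ribosomal protein genes (33.3%) also had an end peak in at least 2 lists without wild-type WDR5, beside 37.0% of all such genes. The same share was 9 of 14 for spliceosome and SR protein genes (64.3%) and 7 of 11 for MYC and its partners (63.6%). It was 8 of 14 for translation factors (57.1%) and 7 of 17 for DNA replication genes (41.2%). By this measure translation factors were thus above the share of all such genes, and the mitochondrial ribosomal and proteasome genes below it. The shares of DNA replication and cytosolic ribosomal protein genes were near it and are no result about these lists.

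Chromatin regulators, splicing factors and MYC partners had shares from 21.7% to 35.3%, beside 21.4% of all genes. With wild-type WDR5 only, an end peak was found at 6 of 17 Polycomb genes (35.3%), 5 of 17 chromatin remodellers (29.4%), 5 of 23 spliceosome genes (21.7%), 4 of 12 genes of MYC and partners (33.3%) and 4 of 16 COMPASS and MLL subunits (25.0%). The spliceosome and COMPASS shares were near that of all genes, so their members are examples of the pattern and no result about these lists. Ash2l and Wdr82, both subunits of these methyltransferases, had one in 1 of 4 lists without and 7 of 8 with. Arid1a, a subunit of the BAF remodeller, had one in 0 of 4 and 7 of 8, and Phc1, a Polycomb subunit, in 1 of 4 and 8 of 8. Of 18 p53 targets 4 showed the pattern (22.2%), a share near that of all genes. They included Perp, an effector of apoptosis, and Eda2r, a TNF receptor family member, in 0 of 4 and 7 of 8, and Ccng1, cyclin G, in 1 of 4 and 8 of 8.

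Lists of developmental genes had shares from 0% to 35.7%, beside 21.4% of all genes. The pattern was found at 5 of 14 neural progenitor genes (35.7%), 3 of 10 endoderm genes (30.0%), 4 of 18 genes of Wnt, Nodal and BMP signalling (22.2%), 2 of 12 primitive streak genes (16.7%) and 2 of 13 eye field genes (15.4%). It was found at 0 of 8 trophectoderm, 0 of 10 fibroblast and 0 of 23 Hox genes, of which 20 had no end peak in any list. Neurog2 and Zic1, transcription factors of neural progenitors, had an end peak in 0 of 4 lists without and 7 of 8 with, as had the mesendoderm factor Eomes and the Wnt antagonist Dkk1. Sox17 and Foxa2, endoderm factors, had one in 1 of 4 and 7 of 8. For Neurog2, Zic1, Eomes, Dkk1, Sox17 and Foxa2 the list with wild-type WDR5 that lacked the peak was parental replicate 2.

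How far the lists without wild-type WDR5 held the shared open chromatin of the other lines was read from the 17428 regions found in all 6 lists of WDR5WT, C9 and H9. Backbone lists held 2.08% and 7.21% of them and S91K-Y191F lists 20% and 61.3%, and parental lists held 76.8% and 19.1%. S91K-Y191F replicate 1 and parental replicate 2 held nearly the same share, and their lists are nearly of one length. These 2 lists differ in both WDR5 and p53. The other replicates of the same lines held 61.3% and 76.8%, and the part of list length in these shares was not tested. Stronger regions were held more often. In the weakest 20% of the 17428 regions, by median signal percentile over the 6 lists, S91K-Y191F replicate 1 held 2.07% and parental replicate 2 held 2.24%, and in the strongest 20% they held 59.4% and 58.2%. S91K-Y191F replicate 2 held 24.0% of the weakest and 95.2% of the strongest, against 44.3% and 99.0% in parental replicate 1. Backbone replicate 2 held 27.3% of the strongest and backbone replicate 1 held 7%.

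**Figure D4:**
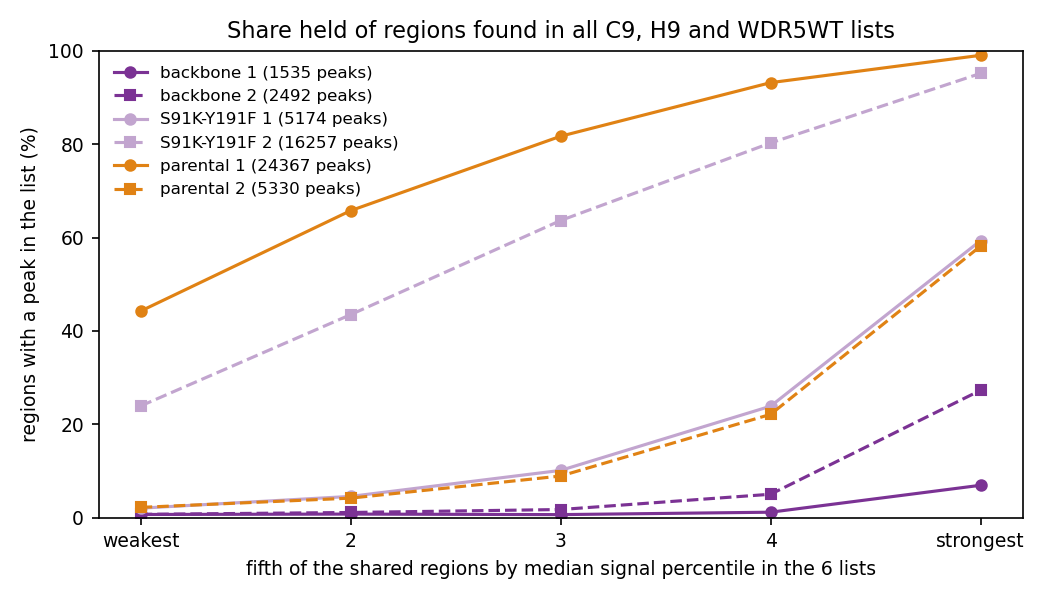
Share of the 17428 regions found in all WDR5WT, C9 and H9 lists that each of the other 6 lists held (percent), by strength of the region in those 6 lists (5 groups of 3485 or 3486 regions). Lines are lists, with the number of peaks in the legend. The lines of S91K-Y191F replicate 1 and parental replicate 2 nearly coincide, and the backbone lines lie lowest.

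Gene ends and other regions gave the same order of lists. At gene ends S91K-Y191F replicate 1 held 30.4% and at other regions 12.1%, against 29.1% and 11.5% in parental replicate 2. Backbone lists held 2.47% and 10.9% at gene ends and 1.78% and 4.37% elsewhere. Held to the strongest 5174 peaks, S91K-Y191F lists had 69.9% and 84.6% of their peaks in the 17428 regions, against 97.6% to 99.7% in the WDR5WT, C9 and H9 lists, from which those regions were made, and 75.4% and 64.8% in parental lists. At that length S91K-Y191F replicate 1 shared 3186 regions with parental replicate 2, 65.1% and 65.4% of the regions each held, and 3362 with S91K-Y191F replicate 2, 68.7% and 66.5%.

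The number of regions held without wild-type WDR5 only depended on single lists and on the merging of peaks. Against 25 complete regions in the full lists there were 127 without parental replicate 2, 38 and 53 without S91K-Y191F replicates 1 and 2, 10 at equal list length and 14 when peaks were merged across 200 bp. The rises when a list was left out have a direction set in advance. Of the 25 complete ones, 2 lay at gene ends, 7 elsewhere inside genes and 16 between genes, and 20 were on chromosome 8, where 17 lay between 19789576 and 20710110 (mm10). That chromosome held 8.89% of all regions and 24.9% of the 321 regions held by all 12 lists. The strongest, chr8:20403756-20406246, lay 40554 bp from Gm15319 and had signals of 1179.9 and 1404 in backbone lists and 661 and 346 in S91K-Y191F lists, with no peak in the 8 lists with wild-type WDR5. The next were chr8:20357219-20358133 inside Gm15319 and chr8:20535082-20536683, 12662 bp from Gm40469. The 25 signals had a median of 415 and 348 in backbone lists and 378 and 299 in S91K-Y191F lists. Outside chromosome 8 the complete regions were near Mup17, a major urinary protein gene, Gm13212 and Speer4d and inside Cubn and Grid1. Chromosome 8 held 28.6% and 23.3% of all peaks in backbone lists and 16.0% and 10.4% in S91K-Y191F lists, against 8.73% to 9.78% in WDR5WT, C9 and H9 lists and 6.25% and 11.1% in parental lists.

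The 272 regions with 1 exception a side showed the same places, 105 on chromosome 8 (38.6%, beside 8.89% of all regions) and 87 of these between 19716199 and 20712088. Gene ends made up 9.19% of them, beside 24.1% of all regions, 43.7% of the 9936 held with wild-type WDR5 only and 52.0% of the 321 held by all lists. Parental replicate 2 held 166 of the 272 (61%) and parental replicate 1 held 31, while the 6 lists of WDR5WT, C9 and H9 together held 1. The 15 genes with an end peak without wild-type WDR5 only included Speer4c, Speer4d, Gm21083, the interferon gene Ifnz and its neighbours Gm13275 and Gm13279, and the paired histone genes H2bc23 and H2ac23. Speer4 and histone genes have related copies, so peaks there are given as uncertain, and the sharing of reads between copies was not tested. St6galnac1, a sialyltransferase gene, had an end peak in all 4 lists without wild-type WDR5 and, of the 8 with it, in parental replicate 2.

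Embryoid body lists, which the patterns did not use, held regions found with wild-type WDR5 only far more often than those found without it only. These cell aggregates were made from the double knockout, whose day is not labelled, and from the parental line at day 4. Their lists were longer than any ESC list, with 78106 and 93646 peaks in the double knockout and 90436 and 75673 in the parental line. Of the 58 complete regions with wild-type WDR5, double knockout embryoid bodies held 84.5% and 84.5% and parental ones 82.8% and 72.4%. Of the 9936 regions, double knockout embryoid bodies held 85.9% and 89.4% and parental ones 84.9% and 82.2%. Of all 52480 regions, the double knockout lists held 59.9% and 66.3% and the parental lists 59.1% and 55.1%. Regions found in ESCs with wild-type WDR5 only were thus called in embryoid bodies that lack it about as often as in those that have it, in 2 lists of each and without a test. Higher shares were found for the 1244 regions held by all 8 lists with and 2 of 4 without wild-type WDR5. Double knockout embryoid bodies held 94.3% and 94.5% of the 1244 and parental ones 93.6% and 94.0%. The high share was thus not particular to regions held with wild-type WDR5 only. Of the 272 regions held without wild-type WDR5 only, double knockout embryoid bodies held 1.10% and 0.735% and parental ones 0.735% and 1.47%. Shares were as low for the 434 regions held by all 4 lists without and 2 with wild-type WDR5, nearly all shared with the parental line. Double knockout embryoid bodies held 0.691% and 1.15% of the 434 and parental ones 1.61% and 1.15%. The low share was thus not particular to regions held without wild-type WDR5 only. Blacklisted regions had been removed from the embryoid body lists by the authors, per the file names, and the part of that step in these shares was not tested.

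**Figure D5:**
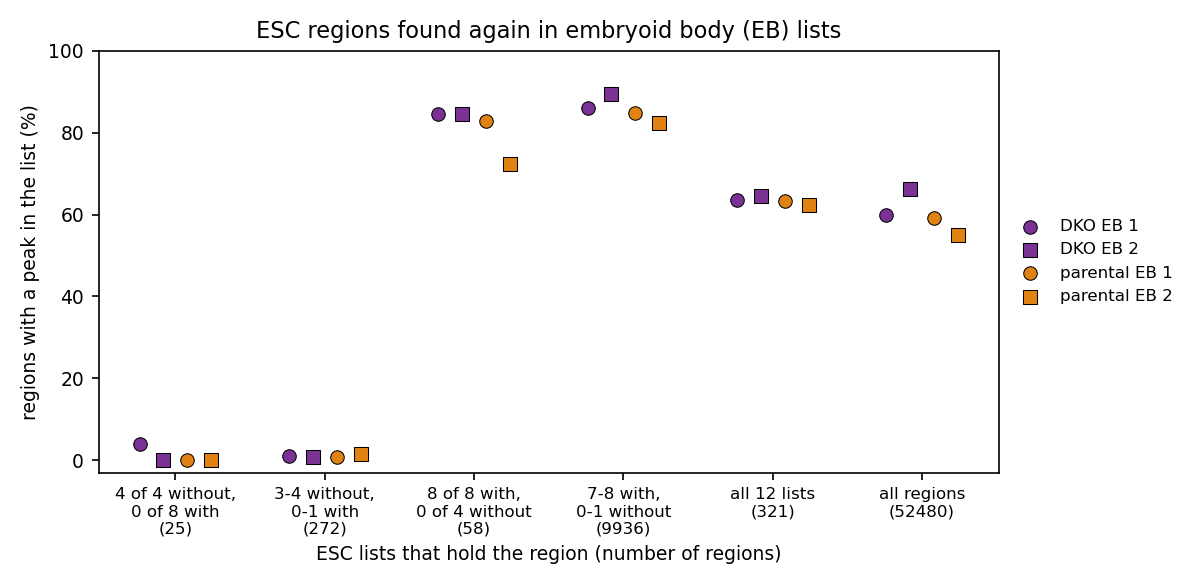
Share of ESC regions with a peak in each embryoid body list (percent), by the ESC lists that held the region, with the number of regions in brackets. Purple points are double knockout and orange points parental embryoid bodies, circles replicate 1 and squares replicate 2. Regions held without wild-type WDR5 only lie between 0 and 4.00%, and those held with it only between 72.4% and 89.4%.

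The 321 regions held by all 12 lists allowed a comparison of rank in place of presence. Each list's signals over them were ranked and turned into normal scores, replicates were averaged per line, and limma with Benjamini-Hochberg adjustment was fitted over 2 against 4 lines. At an adjusted p under 0.05, 0 regions (0%) ranked higher without wild-type WDR5 and 0 (0%) lower, with 49 and 64 at an unadjusted p under 0.05 and a smallest adjusted p of 0.102 by limma. The region with the smallest p lay 10186 bp from Trim43c on chromosome 9, at rank percentiles of 9.50 and 26.6 in backbone and 14.2 and 37.9 in S91K-Y191F lists, against 66.8 to 72.7 in the 8 lists with wild-type WDR5. Its groups did not overlap, and its score differed by -1.32 ± 0.246 (SE). At the start of Etfdh, an electron transfer enzyme, the percentiles were 10.7 and 20.1 in backbone and 11.4 and 42.8 in S91K-Y191F lists, against 80.8 and 81.2 in WDR5WT, 87.4 and 83.0 in C9, 84.3 and 87.4 in H9 and 73.1 and 43.1 in parental lists. Polr3g, a subunit of RNA polymerase III that is abundant in pluripotent cells, had 19.8 and 61.8 in backbone and 52.5 and 56.5 in S91K-Y191F lists, against 76.5 to 95.2 in the 8 lists, a score difference of -1.43 ± 0.312 (SE).

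In the other direction, the smallest p values were at Tmem267 on chromosome 13 and at regions of chromosome 8 nearest to Gm40469, 9530057J20Rik and Gm15319. The region 18165 bp from Gm40469 stood at 96.4 and 96.7 in backbone and 95.2 and 88.9 in S91K-Y191F lists, against 14.8 and 17.9 in WDR5WT, 18.2 and 8.57 in C9, 10.1 and 9.19 in H9 and 33.5 and 89.9 in parental lists. Parental replicate 2 stood with the lists without wild-type WDR5 at this region, as it did at Tmem267, with 86.8 against 5.45 in parental replicate 1. On the first principal component of the 321 ranks, which held 71.3% of the variance, backbone lists stood at -15.4 and -13.3 and S91K-Y191F lists at -11.2 and -4.51, against 9.39 to 10.2 in WDR5WT, C9 and H9 lists and -3.56 and -12.1 in parental lists. Without parental replicate 2 the limma fit called 26 regions higher and 34 lower, and without S91K-Y191F replicate 2 it called 14 and 9.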

How the data were processed

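The 12 ESC and 4 embryoid body files are peak lists. The submitters' processing notes name build mm10 and the tools MACS2 2.1.2, Genrich 0.6, Bowtie2 2.3.5, DESeq2 and SAMtools, without their roles. In the ESC lists the authors deposited, each peak has a signal whose scaling is not given in the sources used here and which is never under 200, and a −log10 p. The deposited embryoid body lists give a ratio (fold enrichment over background), which was not compared with ESC signals. Signal only ranked peaks within a list or described single peaks. The lists hold no counts, so depth is unknown.

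Peaks of autosomes, X and Y that shared 1 bp or more were joined into regions, and presence was counted per side. The gene table (RefSeq, GRCm38.p6, the assembly of mm10) has no strand, so ends of either kind were used; all 363 genes of the 22 gene lists matched. Numbers per list were averaged per line and compared by exact permutation (Python 3.11.15, numpy 2.4.6), and ranks in shared regions by limma 3.58.1 (R 4.3.3). Region counts have no test. The scripts were tested on simulated lists.

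Named genes are Wdr5, Trp53 and Rax, up to 3 per gene list with the largest difference in share of lists, the 10 strongest complete regions with and up to 10 without wild-type WDR5, and up to 8 shared regions a direction by p; exceptions are named as such, and 1 gene that the rule picks is not reported here. Members and lists were chosen with earlier results of these data known. Same-numbered replicates were not paired: 1 of 15 correlations of their deviations exceeded 0.1 (range -0.559 to 0.135).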

Additional observations from a re-analysis of the deposited data

Results flagged for a closer look

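Within the 8 lists with wild-type WDR5, parental replicate 2 stood apart from the other 7 in log10 peak number, at 3.73, by Dixon's test at the 95% level. It also stood apart in the share of all peaks at gene ends, at 44.2%. Chance gives such a flag in about 1 of 20 groups. The results given with and without this list are the counts of regions and of genes and the ranks of shared regions.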

How the results depend on the processing

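Counts are given in the order with complete, without complete, with 1 exception and without 1 exception. They were 32, 10, 263 and 409 at equal list length, 6711, 569, 17937 and 811 in the lists that lack p53, and 149 (with complete) and 19614 (with 1 exception) with parental lists alone as the side with wild-type WDR5. The upper 50% by the authors' p gave 38 (with complete), 5057 and 176 (1 exception), merging across 200 bp gave 14 (without complete), and, chosen after seeing the data, a peak over at least 50% of the region gave 39 (without complete). Also chosen then, leaving out the backbone line at equal length (5174 peaks) gave 119, 919 and 2178 for all but with complete. With parental lists alone or no backbone line, 1 side has only 2 lists. A peak in 1 of these 2 then counts as held and also as absent with 1 exception allowed. Those counts with 1 exception are thus at a looser limit than in the full lists. An overlap of 50% of the shorter of peak and region changes no count by construction. Leaving out each list gave 58 to 3518, 25 to 127, 9941 to 15387 and 272 to 793, with the upper ends without parental replicate 2. For fixed regions or genes, leaving out a list can only keep or raise these counts. For 25 the count was 53 without S91K-Y191F replicate 2 and 38 without replicate 1, and for 272 it was 788 without parental replicate 1.

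Genes with an end peak with and without wild-type WDR5 only were 224 and 62 at equal length, 3039 with in the upper 50%, and 68 and 99 without in the lists that lack p53 and with parental lists alone. The count of 99 is at the looser limit of a side with 2 lists. Leaving out each list gave 4683 to 6496 and 15 to 67, with 66 and 67 without parental replicates 1 and 2. RefSeq promoter windows in place of gene ends, chosen after seeing the data, stayed within 1.5 times.

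The difference in log10 peak number (-0.749) and in gene ends at equal length (-28.1 points) passed 0.05 when the 12 libraries were permuted (exact p = 0.00404 and 0.0141) and with replicate number as a block (exact p = 0.00889 and 0.0178), though the numbers do not pair the samples. The share of all peaks at gene ends turned to -6.25 points in the upper 50% and -3.32 with parental lists alone, where median width turned to 14.25 bp. Leaving out each list gave -0.873 to -0.625, -3.27 to 6.42 points, -38.25 to -12.25 bp and -31.9 to -24.2 points.

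Shared regions called by limma higher and lower were 0 and 1 when ranked by −log10 p, 21 and 21 with line as a random block, 57 and 84 with the replicate block, 73 and 112 in the lists that lack p53 and 3 and 3 in the upper 50% by mean rank. Without each list they were 0 to 26 and 0 to 34, and 0 and 0 without the backbone line. The causes were not tested. Depth is unknown, and an exact permutation over 6 lines cannot give a p under 0.0667.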
